A study of Macaca mulatta with 28 samples.

Results

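The CADM family, also called SynCAMs or nectin-like molecules, comprises CADM1, CADM2, CADM3 and CADM4, and was taken as every entry of the deposited table that carried one of these 4 symbols. The table listed 1 transcript for each of 16885 gene symbols, and 13769 of these passed the filter on low counts, all 4 CADM transcripts among them. CADM2 was chosen by its measured counts in these same 28 animals, namely for its higher level in drinkers, so its difference between drinkers and controls, over all animals and by cohort, is given below as a description and without a test. The other members, the cohort comparison and the comparison of drinking categories were not part of that choice.

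The CADM proteins are single-pass membrane proteins of the immunoglobulin superfamily that bind one another across the gap between cells, either like to like or in preferred pairs. Their short cytoplasmic tails hold a motif for proteins of the protein 4.1 group and end in a motif for PDZ scaffolds such as CASK, syntenin and the MPP and PALS proteins. CADM1 and CADM2 are known from synapses and axons, and CADM3 on axons pairs with CADM4 on myelinating glia. In people, common variants at CADM2 have been associated with alcohol consumption and risk taking.

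RNA had been sequenced from punches of the ventral tegmental area (VTA), where the dopamine neurons that project to the nucleus accumbens have their somata, of 28 adult male rhesus macaques labelled wild type, with 1 library per animal. The 17 drinkers self-administered ethanol over more than a year of open access, broken by abstinence periods, and the tissue is labelled as taken at 30 days of abstinence. They are labelled Low (1 animal), Binge (2), Heavy (5) or Very Heavy (9) by drinking phenotype. The 11 controls were calorically yoked or housing controls, and the labels do not tell these kinds apart. Cohort 1 held 8 drinkers (1 Low, 4 Heavy, 3 Very Heavy) and 8 controls, and cohort 2 held 9 drinkers (2 Binge, 1 Heavy, 6 Very Heavy) and 3 controls. Cohort membership came from the study's source data and not from the sample labels. No animal was sampled during drinking, so the comparison of drinkers with controls is one of drinking history after abstinence.

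Estimated counts summed to between 12303914 and 27338669 per animal, and mitochondrial transcripts took a median of 42.6% to 49.1% of them in the 4 groups set by cohort and drinking. Levels are given as CPM, the counts of a transcript per 1000000 counts of the library after scaling by edgeR's TMM factors. All 10 dopamine neuron markers passed the filter, but their summed level ran from 31.1 to 1851 CPM, so the punches differed widely in how much dopamine neuron RNA they held. The table listed a single transcript per gene, and several classical markers were listed at 0 in at least 14 of the 28 animals (SYT1, RBFOX3 and SYN1 of neurons, AQP4, SLC1A2 and ALDH1L1 of astrocytes). In bulk tissue, fewer cells of a type and less RNA per cell cannot be told apart. CPM values are not corrected for transcript length, so levels of different genes are not compared.

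On the Mmul_10 assembly all 4 genes lie on the minus strand, on different chromosomes. CADM1 lies at chr14:108261870-108595427, CADM2 at chr2:185956279-187037122, CADM3 at chr1:91761763-91794024 and CADM4 at chr19:43685416-43702628. CADM2 spans 1080844 bases and CADM4 17213 bases. The last 45 bases of each coding sequence, from RefSeq on Mmul_10, are shown because they encode the tail that contacts the scaffold proteins described later. The capitals mark the last 4 codons, which encode the PDZ-binding end, and the stop codon:
CADM1: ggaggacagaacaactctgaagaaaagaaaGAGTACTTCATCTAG
CADM2: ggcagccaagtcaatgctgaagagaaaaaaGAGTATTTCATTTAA
CADM3: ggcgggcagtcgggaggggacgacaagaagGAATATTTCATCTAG
CADM4: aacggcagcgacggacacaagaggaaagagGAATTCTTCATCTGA

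The same 45 bases ended every RefSeq coding sequence of each gene, 6 for CADM1, 4 for CADM2, 3 for CADM3 and 2 for CADM4. Of the 15 bases in capitals, CADM1 and CADM3 shared 13, and the least alike pair, CADM2 and CADM4, shared 10. Over the whole coding sequence the pairs were 53.8% (CADM2 and CADM4) to 60.5% (CADM2 and CADM3) identical, and no pair shared a run of more than 21 bases in its mRNAs. The genes also differed in base composition. The RefSeq mRNA of CADM2 held 32.8% G and C, while the shares were 42.4% for CADM1, 57.2% for CADM3 and 60.4% for CADM4. Taking the longest RefSeq mRNA of each annotated gene, only 0.744% of genes had a lower share than CADM2.

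CADM2 (ENSMMUT00000000846.3) was higher in drinkers, at 15.4 CPM ± 3.40 (SD, n = 17) against a control level of 10.8 CPM ± 1.72 (SD, n = 11). The ratio of the means was 1.42, and the log2 fold change was 0.51 with a standard error (SE) of 0.12. Drinkers ran from 9.84 to 19.9 CPM with a median of 15.9 CPM, and controls from 8.47 to 15.1 CPM with a median of 10.7 CPM. Of the 17 drinkers, 15 lay above the control median and 10 lay above every control. The groups therefore overlapped over all animals, as they did for every one of the 13769 transcripts kept (0.0% did not overlap). The values rest on 125 to 502 estimated counts per animal.

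The CADM2 values are also given by cohort, and animals of both cohorts entered the choice of CADM2. In cohort 1, the 8 drinkers averaged 14.4 CPM ± 3.78 (SD) and the 8 controls 10.6 CPM ± 1.98 (SD), a ratio of 1.35 and a log2 fold change of 0.44 (SE 0.17). The cohort 1 controls stood at 8.47 to 11.3 CPM except for Control 8 at 15.1 CPM, which lay among the drinkers. In cohort 2, the 3 controls had 10.9, 11.3 and 12.1 CPM, and the 9 drinkers ran from 12.2 to 19.9 CPM with a median of 17.5 CPM, a log2 fold change of 0.52 (SE 0.17). All 9 drinkers of cohort 2 thus lay above all 3 controls, although the lowest drinker exceeded the highest control by little. Over all 13769 transcripts, 86 (0.625%) did not overlap between the groups in cohort 2 and 25 (0.182%) in cohort 1, where CADM2 did overlap. Nothing about CADM2 is read from these shares, since it was chosen on the same values. The CADM2 difference was larger in cohort 2 by 0.08 on the log2 scale (SE 0.25), a value given without a test because it comes from the same differences.

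**Figure D1:**
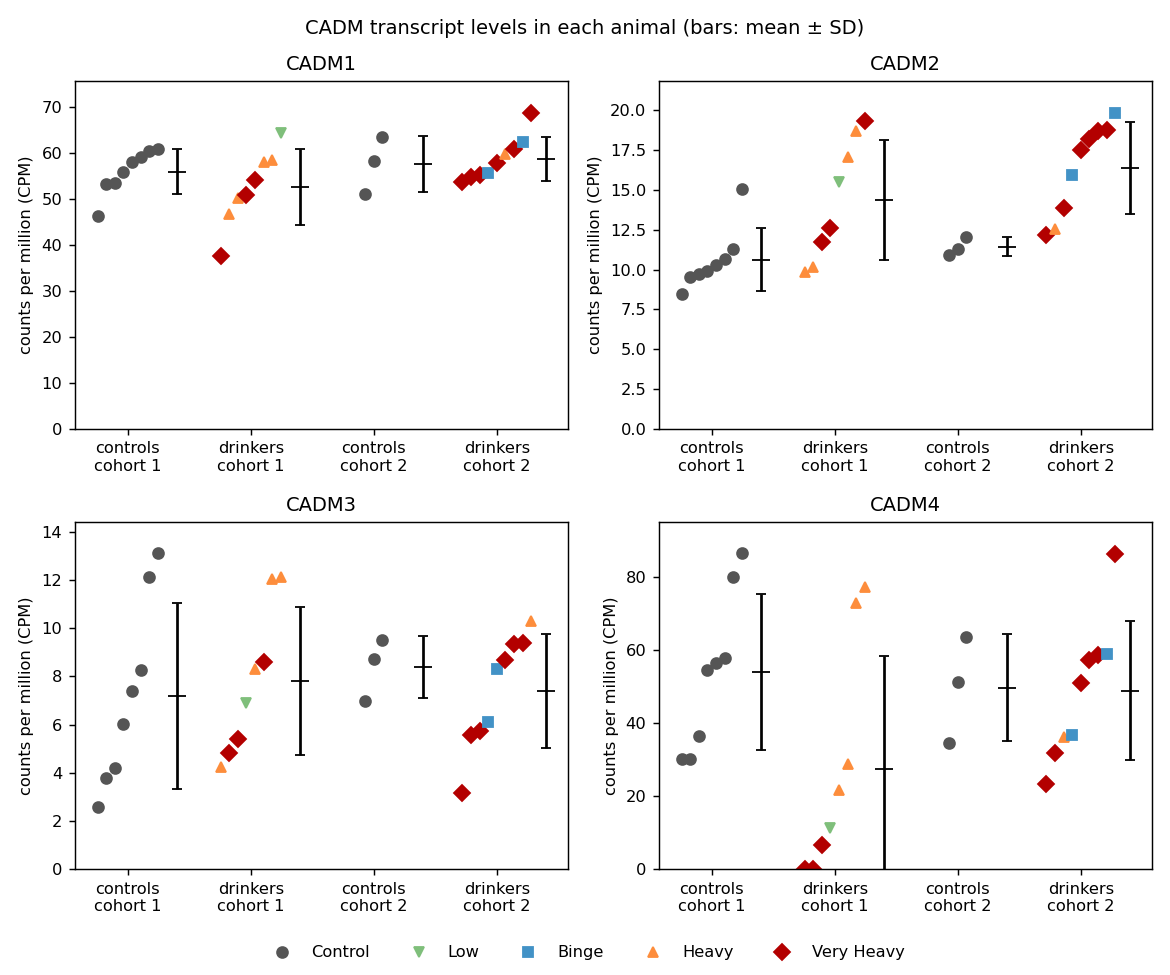
Level of each CADM transcript in CPM (vertical axes, from 0) in all 28 animals, split by cohort and drinking on the horizontal axes, with the drinking category given by marker and the bars giving mean ± SD. CADM2 drinkers reached 19.9 CPM against 15.1 CPM in the highest control, and CADM4 was listed at 0 in 2 Very Heavy animals of cohort 1.

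Among the drinking categories, CADM2 stood at 17.9 CPM ± 2.78 (SD, n = 2) in Binge, 15.9 CPM ± 3.20 (SD, n = 9) in Very Heavy, 15.5 CPM in the single Low animal and 13.7 CPM ± 4.04 (SD, n = 5) in Heavy drinkers. The Binge animals had 15.9 and 19.9 CPM. The Heavy animals had 9.84, 10.1, 12.5, 17.1 and 18.7 CPM. The Very Heavy animals ran from 11.7 to 19.3 CPM with a median of 17.5 CPM. Neighbouring categories in this order overlapped, and 2 Heavy animals lay below the control median. With cohort as a term, Very Heavy drinkers differed from the other drinkers by 0.03 on the log2 scale (SE 0.17, edgeR adjusted p = 1). In that comparison 0.0% of 13195 transcripts passed an adjusted p of 0.05 (562, or 4.26%, had an unadjusted p under 0.05, and DESeq2 called 24). Cohort 2 differed from cohort 1 in CADM2 by 0.16 (SE 0.12, edgeR adjusted p = 0.743), with drinking as a term. None of the 4 members had an unadjusted p under 0.05 in that comparison, where 9.8% of all transcripts did.

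CADM1 (ENSMMUT00000066244.2), the most steadily measured member, averaged 55.9 CPM ± 7.18 (SD) over the 17 drinkers and 56.4 CPM ± 4.99 (SD) over the 11 controls. Drinkers ran from 37.6 to 68.8 CPM around a median of 55.7 CPM, and controls from 46.2 to 63.4 CPM around a median of 58.1 CPM. The ranges overlapped almost fully. The log2 fold change was -0.01 (SE 0.068, edgeR adjusted p = 1.00). No transcript passed the adjusted threshold in that comparison (0.0% of 13769), although 629 (4.57%) had an unadjusted p under 0.05 and DESeq2's Wald test called 8. The coefficient of variation over 28 animals was 11.3% for CADM1 and 26.6% for CADM2. The log2 ratio of CADM2 to CADM1 counts within an animal was -1.88 ± 0.33 (SD) over the 17 drinkers and -2.39 ± 0.26 (SD) over the 11 controls. That of CADM2 to CADM3 counts was 1.08 ± 0.67 (SD) over the drinkers and 0.66 ± 0.82 (SD) over the controls, and the groups overlapped in both ratios. Neither ratio depends on library size. Both include the CADM2 difference by which the gene was chosen and are given as a description.

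CADM1 was 0.12 higher in cohort 2 than in cohort 1 on the log2 scale (SE 0.067, edgeR adjusted p = 0.576). Its drinker difference was -0.08 (SE 0.097) in cohort 1 and 0.03 (SE 0.089) in cohort 2, and the interaction was 0.12 (SE 0.14, edgeR adjusted p = 0.939). In Very Heavy against other drinkers it was -0.12 (SE 0.092, edgeR adjusted p = 1). The lowest animal was Very Heavy 1 of cohort 1 at 37.6 CPM, and the highest was Very Heavy 6 of cohort 2 at 68.8 CPM.

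CADM3 (ENSMMUT00000001838.4), the partner of CADM4 on axons, averaged 7.60 CPM ± 2.63 (SD) over the 17 drinkers and 7.52 CPM ± 3.32 (SD) over the 11 controls. Drinkers ran from 3.15 to 12.1 CPM (median 8.29 CPM) and controls from 2.59 to 13.1 CPM (median 7.41 CPM), so the control range enclosed that of the drinkers. The log2 fold change was 0.01 (SE 0.23, edgeR adjusted p = 1.00). Counts were low, from 54 to 311 per animal, and the coefficient of variation was 37.8%. Heavy drinkers had 9.41 CPM ± 3.28 (SD, n = 5) and Very Heavy drinkers 6.75 CPM ± 2.29 (SD, n = 9), and their ranges overlapped. Very Heavy against all other drinkers gave -0.36 (SE 0.27, edgeR adjusted p = 1). The cohorts differed by 0.03 (SE 0.23, edgeR adjusted p = 0.991), and the interaction was -0.30 (SE 0.50, edgeR adjusted p = 0.970).

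**Figure D2:**
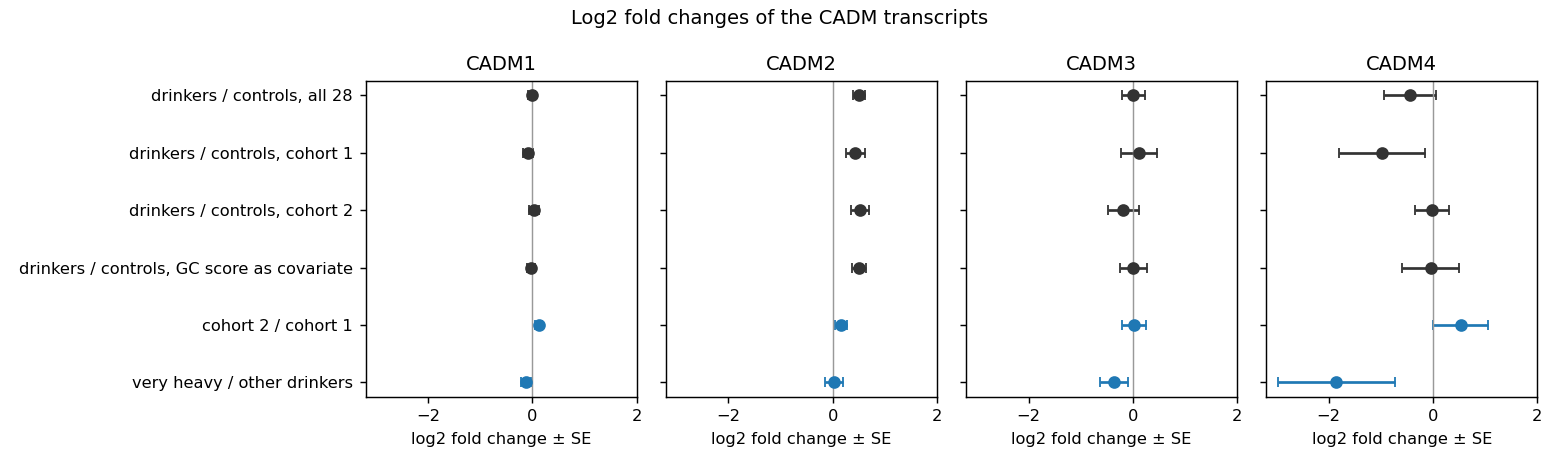
Log2 fold change (horizontal axes) with its standard error (bars) for the 4 CADM transcripts, with the comparisons as rows: drinkers over controls in all 28 animals, in each cohort and with the GC score as a covariate (dark), and the cohort and Very Heavy comparisons (blue). CADM2 lies at 0.44 or more in the 4 drinker rows, CADM1 lies near 0 throughout, and the widest bars are those of CADM4.

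CADM4 (ENSMMUT00000006521.4), the member of myelinating glia, varied most between animals, with a coefficient of variation of 56.1%. The 17 drinkers averaged 38.7 CPM ± 27.0 (SD) and the 11 controls 52.8 CPM ± 19.1 (SD). Controls ran from 30.1 to 86.4 CPM (median 54.4 CPM), while drinkers ran from 0 to 86.2 CPM (median 36.3 CPM). The log2 fold change was -0.44 (SE 0.50, edgeR adjusted p = 1.00), smaller than its error. It was -1.45 (SE 0.82, adjusted p = 0.876) with limma-voom, -0.26 (SE 0.30, edgeR adjusted p = 1.00) without the 2 animals listed at 0, and -0.23 (SE 0.53, edgeR adjusted p = 1.00) with the pan-neuronal and oligodendrocyte scores described later. The 5 lowest values were in cohort 1 drinkers. CADM4 was listed at 0 in Very Heavy 1 and Very Heavy 2, at 6.67 CPM in Very Heavy 3 and at 11.3 CPM in Low 1. The 4 Heavy animals of cohort 1 had 21.8, 28.7, 73.0 and 77.1 CPM, and the 8 controls of cohort 1 had 30.1 to 86.4 CPM. In cohort 2, Very Heavy 6 at 23.3 CPM also lay below every control.

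The CADM4 transcript had a median of 925 counts, and other transcripts of the gene were not listed, so an entry of 0 is reported only as listed at 0. Of 3864 transcripts with a median of at least 500 counts, 73 (1.89%) were listed at 0 in at least 1 animal. Very Heavy 1 held 17 such entries, Very Heavy 2 held 16 and Low 1 held 14, and the other animals 0 to 11. The range was 5 to 17 in cohort 1 drinkers, 2 to 9 in cohort 1 controls and 0 to 7 in cohort 2. Transcripts with a count numbered 10554 to 11898 in cohort 1 drinkers and 11718 to 12550 in cohort 1 controls. In cohort 1 the log2 fold change of CADM4 was -0.97 (SE 0.83, edgeR adjusted p = 0.829, where 0.0382% of 13086 transcripts passed), and in cohort 2 it was -0.02 (SE 0.33, edgeR adjusted p = 1.00). In cohort 2, drinkers had 48.9 CPM ± 19.1 (SD, n = 9) and controls 49.7 CPM ± 14.5 (SD, n = 3). The interaction was 0.95 (SE 1.11, edgeR adjusted p = 0.931). Very Heavy against other drinkers gave -1.85 (SE 1.13, edgeR adjusted p = 1) with cohort as a term, and -0.37 (SE 0.62) without the 2 animals listed at 0. It was -3.52 (SE 1.38, edgeR adjusted p = 0.973) against Heavy drinkers only, and -0.30 (SE 0.79, edgeR adjusted p = 1.00) with no cohort term. With DESeq2's Wald test it was -1.97 (SE 0.94, adjusted p = 0.755). The cohorts differed in CADM4 by 0.53 (SE 0.53, edgeR adjusted p = 0.852).

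The libraries differed in the relative level of transcripts of low and high GC content, and the source of this difference was not tested. A GC score was computed for each animal as the mean log2 deviation of the fifth of transcripts lowest in GC minus that of the fifth highest in GC. In cohort 1 it was 0.18 ± 0.13 (SD) over the 8 drinkers and -0.16 ± 0.15 (SD) over the 8 controls. In cohort 2 it was -0.024 ± 0.094 (SD) over the 9 drinkers and 0.0050 ± 0.089 (SD) over the 3 controls. Drinkers of cohort 1 thus had relatively more of the low-GC transcripts, the class of CADM2, and fewer of the high-GC ones, the class of CADM4. Over 28 animals the score correlated with CADM4 at r = -0.442 (permutation p = 0.0215, adjusted p = 0.0860 over 4 members), which did not pass the adjusted threshold. The rank correlation did (rho = -0.469, permutation p = 0.0123, adjusted p = 0.0492), as did r with variance stabilized counts (r = -0.516, permutation p = 0.00506, adjusted p = 0.0202). For CADM4, r was -0.460 in cohort 1 and -0.174 in cohort 2. Without the 2 animals farthest from the median CADM level, r was -0.532 for CADM4 (permutation p = 0.0049, adjusted p = 0.0198). For CADM2, r with the score was 0.350 over 28 animals (rho = 0.306), given without a p because it includes the difference between drinkers and controls by which CADM2 was chosen. It was 0.024 among the 17 drinkers and 0.021 among the 11 controls, and 0.493 in cohort 1 and 0.215 in cohort 2, where both groups enter.

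With the GC score as a covariate, the CADM2 difference between drinkers and controls was 0.50 (SE 0.14) over all animals, 0.39 (SE 0.29) in cohort 1 and 0.55 (SE 0.16) in cohort 2. In cohort 1 the score nearly separated the groups, and the SE of CADM2 rose from 0.17 to 0.29. The CADM4 difference was -0.04 (SE 0.55) over all animals and -0.15 (SE 1.20) in cohort 1 with the score. For CADM1 the difference in cohort 1 was -0.31 (SE 0.14, edgeR adjusted p = 1.00) with the score, against -0.08 without it, and its interaction with cohort was 0.33 (SE 0.16, edgeR adjusted p = 0.651), against 0.12. What part the score has in the values of CADM1, CADM2 and CADM4 was not tested.

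**Figure D3:**
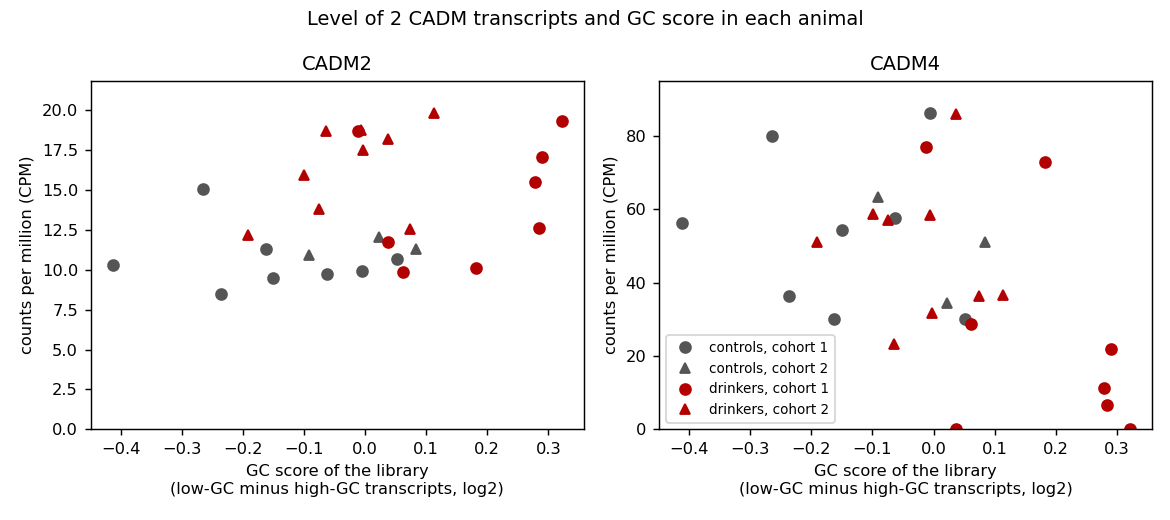
CADM2 (left) and CADM4 (right) in CPM against the GC score of each library (horizontal axes, log2), for drinkers and controls of cohort 1 (circles) and cohort 2 (triangles). Cohort 1 drinkers lie to the right of most cohort 1 controls, while the scores of the cohort 2 groups overlap.

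The members were also compared with one another. Of the 6 pairs, none passed an adjusted p of 0.05 for Pearson's r over 28 animals, and 1 had an unadjusted permutation p under 0.05. That pair, CADM1 and CADM4, had r = 0.420 (permutation p = 0.0397, adjusted p = 0.238) but rho = -0.077 (permutation p = 0.694), and r was -0.0037 without the 2 animals farthest from the median of CADM1, and -0.622 in cohort 2. Without the 2 animals in which CADM4 was listed at 0, r was -0.172. The pooled value thus rested on few animals. CADM3 and CADM4, the axonal and glial partners, had r = 0.054 (permutation p = 0.792, adjusted p = 0.792). For this pair r was 0.202 among the 17 drinkers (permutation p = 0.443, adjusted p = 0.664) and -0.627 among the 11 controls (permutation p = 0.0405, adjusted p = 0.243). The pairs with CADM2 are a description for the reason given above, with r = 0.142 for CADM1 and -0.160 for CADM4 over 28 animals.

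Each member was compared with scores of 5 cell types, the mean z-score of that cell type's markers, which gave 20 relations. None passed the adjusted threshold. The highest r was that of CADM2 with the astrocyte score, at 0.523 (rho = 0.439), which also includes the difference by which CADM2 was chosen and so is given without a p. It was 0.459 without the 2 animals farthest from the median, 0.288 in cohort 1 and 0.690 in cohort 2. Within the groups, r was 0.642 among the 17 drinkers (permutation p = 0.00511, adjusted p = 0.102 over 20 relations) and 0.071 among the 11 controls (permutation p = 0.836, adjusted p = 0.998). CADM1 had r = -0.422 with the pan-neuronal score (permutation p = 0.0244, adjusted p = 0.205) and r = 0.411 with the astrocyte score (permutation p = 0.0307, adjusted p = 0.205). With the astrocyte score, r for CADM1 was 0.222 without the 2 animals farthest from the median, 0.490 in cohort 1 and 0.070 in cohort 2. With the pan-neuronal score these were -0.493, -0.423 and -0.338. CADM3 had r = 0.325 with the pan-neuronal score (permutation p = 0.0922, adjusted p = 0.314), and CADM4 had r = 0.321 with the oligodendrocyte score (permutation p = 0.0943, adjusted p = 0.314). These r values of CADM3 and CADM4 were 0.466 and 0.480 in cohort 1, and 0.094 and 0.034 in cohort 2.

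Of 9 listed astrocyte markers, 7 passed the filter. Between drinkers and controls over all animals, 5 of the 7 had a positive log2 fold change, with a median of 0.12 and a range of -0.29 to 0.73, and none passed an adjusted p of 0.05. Their summed level ran from 1159 to 1925 CPM in drinkers of cohort 2 and from 1095 to 1201 CPM in its controls, and from 926.5 to 1654 CPM in drinkers and 1011 to 1782 CPM in controls of cohort 1. The ranges overlapped in both cohorts, and the list was not tested within a cohort. The single marker of the 7 with an unadjusted p under 0.05 over all animals, where 4.57% of all transcripts had one, was GJA1, the connexin of astrocyte gap junctions, with a log2 fold change of 0.23 (SE 0.10, edgeR adjusted p = 1.00). With the astrocyte score as a covariate the CADM2 difference was 0.43 (SE 0.11), and with the pan-neuronal and oligodendrocyte scores it was 0.49 (SE 0.12). The part of astrocyte RNA in the CADM2 difference was not tested.

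**Figure D4:**
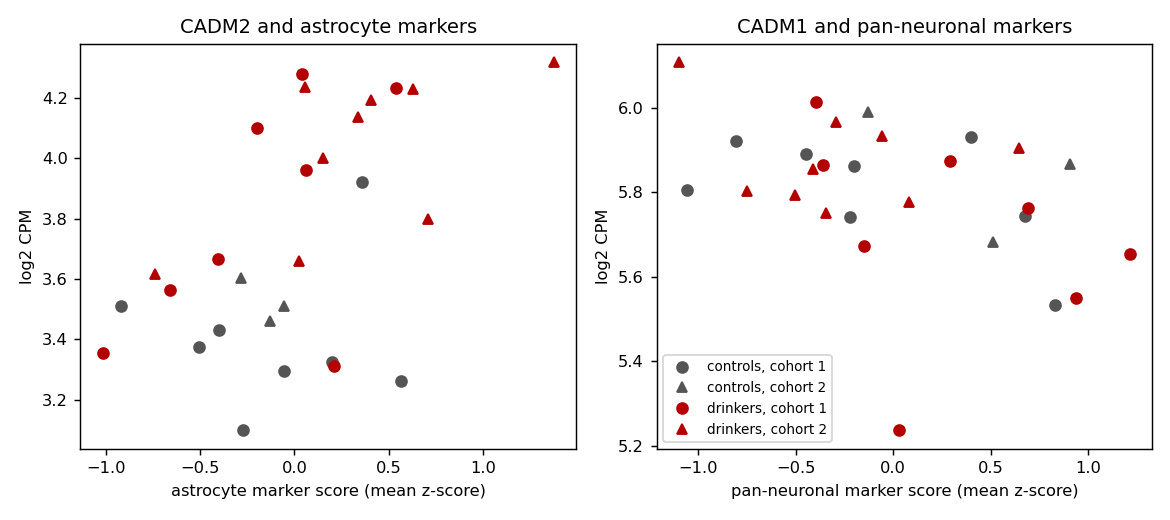
CADM2 against the astrocyte marker score (left) and CADM1 against the pan-neuronal marker score (right), in log2 CPM and mean z-scores, for the 28 animals by drinking (color) and cohort (shape). CADM2 had r = 0.523 with the astrocyte score and CADM1 had r = -0.422 with the pan-neuronal score, and neither passed after adjustment.

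The transcripts whose levels lay closest to each member over the 28 animals are given by Pearson's r of log2 CPM among 8328 or 8329 transcripts counted in every animal, as a description. For CADM1 the first was SLC1A3, the astrocyte glutamate transporter (r = 0.80), followed by EDIL3, FAM120C, DCHS1 and PRXL2C (r = 0.76 for the last). For CADM2 it was STOM, the membrane protein stomatin (r = 0.69), followed by LHFPL6, RANBP3L, TIMP3, an inhibitor of metalloproteinases, and DMD, which encodes dystrophin (r = 0.61). DMD followed CADM2 at r = 0.86 in cohort 2 and 0.29 in cohort 1, while STOM did so at 0.62 and 0.75. For CADM3 it was AP2B1, an adaptor subunit of clathrin coats (r = 0.60), followed by C6H5orf22, SORBS2, STX18 and CNTNAP2, an axonal adhesion molecule (r = 0.53). SORBS2 followed CADM3 at r = 0.82 in cohort 1 and 0.048 in cohort 2, and CNTNAP2 at 0.71 and 0.23. For CADM4 it was CCDC9 (r = 0.84), followed by C12H2orf76, RPN1, N4BP3 and ZNF469 (r = 0.80). The values for CADM4 included the animals at 0, and for C12H2orf76 the rank correlation was only 0.26. Transcripts of an animal share its library and depth, so r values carry no p.

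The partner genes of the CADM proteins were examined as 3 lists, namely nectins and related adhesion molecules, cytoplasmic scaffolds, and protein 4.1 and FERM proteins. In drinkers against controls, none of 5, 11 and 4 transcripts tested passed an adjusted p of 0.05, where 0.0% of all transcripts did, and in the cohort (0.0436%), interaction (0.0145%) and Very Heavy comparisons none did either. The medians of the log2 fold changes between drinkers and controls were -0.21, -0.08 and 0.15. CRTAM, LIN7C, DLG1 and FARP1 did not pass the filter.

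Among adhesion partners, PVR, the poliovirus receptor, averaged 42.8 CPM ± 5.34 (SD) over the 17 drinkers and 40.0 CPM ± 6.17 (SD) over the 11 controls, a log2 fold change of 0.10 (SE 0.078, edgeR adjusted p = 1.00). Its difference went opposite ways in the cohorts, from 37.5 CPM in controls to 44.5 CPM in drinkers in cohort 1 and from 46.6 CPM to 41.2 CPM in cohort 2. The interaction was -0.42 (SE 0.15, edgeR adjusted p = 0.334). NECTIN1, a junctional adhesion molecule, had -0.71 (SE 0.49) on a median of 21 counts, NECTIN2 0.04 (SE 0.15) and NECTIN3 -0.21 (SE 0.24), and none of them had an unadjusted p under 0.05.

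Among scaffolds, SDCBP, which encodes syntenin, averaged 146 CPM ± 25.3 (SD) over the 17 drinkers and 128 CPM ± 20.6 (SD) over the 11 controls, a log2 fold change of 0.18 (SE 0.091, edgeR adjusted p = 1.00). It was 160 CPM in drinkers and 123 CPM in controls of cohort 1, and 133 CPM and 143 CPM in cohort 2, with an interaction of -0.49 (SE 0.17, edgeR adjusted p = 0.329). LIN7A, a partner of CASK, showed an interaction of -0.79 (SE 0.37, edgeR adjusted p = 0.501). With PVR, these were 3 partners with an unadjusted p under 0.05 for the interaction, all with a lower drinker-control difference in cohort 2, against 9.62% of all transcripts in either direction and 4.69% in this one. That makes 3 of the 20 partners tested. PALS1 had a log2 fold change of 0.13 (SE 0.092) and MPP3 -0.19 (SE 0.13) between drinkers and controls.

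The CASK transcript was listed at 0 in 22 of 28 animals. It had a count in 1 of 17 drinkers, at 4 counts, and in 5 of 11 controls, at 4 to 50 counts. In cohort 2 all 3 controls had 4 to 10 counts and 1 of 9 drinkers had a count. No drinker reached 5 counts, so the transcript passed the filter only through controls. Nothing is therefore read from its p between drinkers and controls. Most animals were at or near 0, so no fold change is given. Of the 4.1 group, EPB41L1 averaged 112 CPM ± 37.8 (SD) over the 17 drinkers and 118 CPM ± 47.7 (SD) over the 11 controls, and EPB41L3 at 42.7 CPM ± 5.90 and 40.1 CPM ± 6.93, with log2 fold changes of -0.08 (SE 0.20) and 0.09 (SE 0.087).

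**Figure D5:**
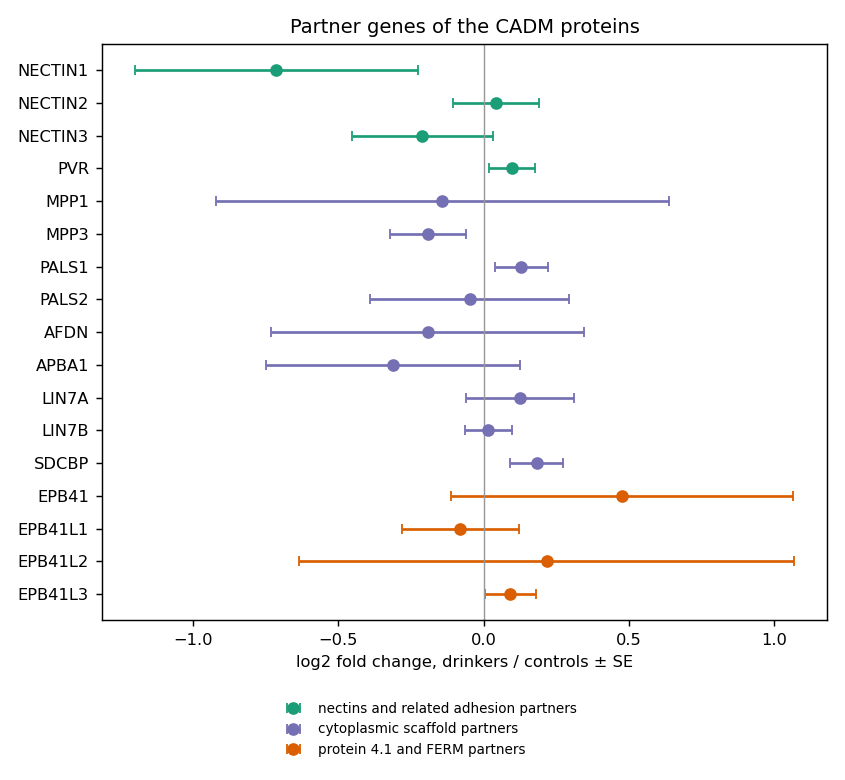
Log2 fold change of drinkers over controls (horizontal axis) with its standard error (bars) for the 17 partner transcripts that had a median of at least 20 counts, colored by list. The largest shift is that of NECTIN1 at -0.71, and none passed the adjusted threshold.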

How the data were processed

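RNA of VTA punches from 28 rhesus macaques was measured in 1 library each. The authors trimmed reads with Trim Galore 0.6.7 and quantified them with Salmon 1.9.0 on Mmul_10, and the submitters' processing notes also name DESeq2 1.36.0. They deposited estimated counts that were not normalized, for 1 Ensembl transcript per gene symbol, so reads that Salmon gave to a gene's remaining transcripts do not enter its value. Estimated counts were rounded to whole numbers. One entry without a symbol (1.16e-05% of counts) was left out, and the total per animal was 12303914 to 27338669. Each animal is a separate sample. No pair of libraries had identical counts for more than 0.786% of transcripts above 20 counts.

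Transcripts with 5 counts or more in 3 animals or more were kept. The study's wording of its filter can also be read as removing transcripts under 5 counts in 3 animals or more, a stricter rule under which CASK would not be kept. edgeR 4.0.16 (R 4.3.3, TMM, quasi-likelihood test) was fitted across all transcripts kept, with Benjamini-Hochberg adjustment over all of them, for drinkers against controls, cohort 2 against cohort 1 with drinking as a term, the interaction, and Very Heavy against other drinkers with cohort as a term. DESeq2 1.42.0 and limma 3.58.1 served as alternatives, with other size factors, other filters, marker scores as covariates, each cohort alone and single animals left out. The edgeR fits were also run on simulated counts with planted changes larger than the CADM2 difference, which does not bear on smaller ones. Correlations used log2 CPM (prior count 2) and 100000 two-sided permutations (Python 3.11.15, scipy 1.17.1). The GC score used 1613 transcripts in each class, with GC taken from RefSeq mRNAs, which 96.9% of 8326 transcripts counted in every animal had. GC was that of a RefSeq mRNA of the gene and may differ from that of the listed transcript.

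The members and gene lists were chosen with earlier results of these data known. Named genes were the 4 members, partners with an unadjusted p under 0.05 or described by role, and the 5 transcripts with the highest r to each member. No protein sequence was used here. Voltammetry and intake were not analysed here.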

Additional observations from a re-analysis of the deposited data

Results flagged for a closer look

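Among the 20 groups of 4 to 10 animals examined (5 groups for each of the 4 members), 1 held an animal far from the others, where chance gives about 1 in 20. In the cohort 1 controls, Control 8 had 15.1 CPM of CADM2, and the next highest control had 11.3 CPM. The gap was 57.1% of the whole range of the 8 animals.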

How the results depend on the processing

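No paired analysis was possible because the labels do not say which drinker a calorically yoked control belonged to, and animals were numbered in accession order. The log2 fold change of CADM2 between drinkers and controls ran from 0.39 to 0.57 over the fits and leave-outs, and its direction, which the choice of the gene set, is no sign of stability. The corrections for and correlations with the GC score, the fits without the animals in which CADM4 was listed at 0, the astrocyte covariate, the scores from only markers counted in every animal, the fits to drinkers or controls alone in correlations and the leave-outs within cohort 2 were chosen after seeing the data. The cause of the shifts below was not tested.

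For drinkers against controls, the count of called transcripts was 8 with DESeq2's Wald test, 5 in cohort 1 alone, 1 there with the GC score and 1 in cohort 2 without Control 11. Single animals left out of the fit to all gave 0 throughout, and 0 to 1 with those left out of cohort 2. For cohort 2 against cohort 1 (6 calls), it was 91 with DESeq2, 3 with its size factors, 105 in drinkers alone, 0 in controls alone and 0 without the animals at 0 for CADM4, and 0 to 6 with 1 control of cohort 2 left out (0 without Control 11). For the interaction (2 calls), it was 129 with DESeq2, 0 with the GC score, 0 without the animals at 0, and 0 to 4 with 1 control left out (0 without Control 9 or Control 10, 4 without Control 11). For Very Heavy against other drinkers (0 calls), DESeq2 called 24.

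No test of CADM1, CADM3 or CADM4, and no test of CADM2 between cohorts or drinking categories, passed an adjusted p of 0.05 in any fit run. CADM4 between drinkers and controls moved from -0.44 to -1.45 with limma-voom. Differences near 0 changed sign. CADM1 between drinkers and controls was 0.032 in cohort 2, 0.040 there with the GC score, 0.039 without Control 10, 0.10 without Control 11, 0.021 without the animals at 0, and -0.039 to 0.018 with 1 animal left out of all. CADM3 was -0.18 in cohort 2, -0.20 there with the GC score, -0.29, -0.083 and -0.15 without Control 9, 10 or 11, -0.16 for Very Heavy drinkers only, and -0.078 to 0.12 with 1 animal left out of all. CADM4 was 0.19 in cohort 2 without Control 9. Between cohorts, CADM3 was -0.081 in drinkers alone, -0.0036 without the animals at 0 and -0.022 to 0.041 with 1 control left out, and CADM4 was -0.12 in controls alone. CADM2 in Very Heavy against other drinkers was -0.024 without the animals at 0.

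The correlation of CADM1 with CADM4 was -0.077 as rho, -0.0037 without the 2 animals farthest from the median, -0.622 in cohort 2 and -0.172 without the animals at 0. Of the relations with cell type scores, 1 passed with only markers counted in every animal, 1 with variance stabilized counts (both CADM2 with astrocytes) and 2 without the animals at 0, where CADM2 had r = 0.540 with the astrocyte score and CADM1 r = -0.538 with the pan-neuronal score. Those of CADM2 include the difference by which it was chosen, and nothing is read from their passing. Of the relations with the GC score, 1 passed (CADM4) as rho, with variance stabilized counts, without the 2 farthest animals and without the animals at 0, which are the same animals.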
